A study of Homo sapiens with 2 samples.

Results

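Sphingosine 1-phosphate (S1P) and ceramide are signalling lipids made from one another by a short chain of enzymes, and the messages of 9 of these enzymes were compared between A549 cells and A549 cells with MYOCD knocked down. The 9 genes were SGPP1, SPHK1, SPHK2, SGPL1, ASAH1, UGCG, SPTLC1, SPTLC2 and SMPD1. They were taken by exact symbol from a deposited table of 14952 loci, and each was found on 1 line. The set was built around SGPP1 because its value was seen to be low in the knockdown library, so the values of SGPP1, and the count of members that differ, are a description of how the set was chosen.

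A549 is an established line of human lung adenocarcinoma cells. MYOCD encodes myocardin, a coactivator of serum response factor. The study held 2 RNA-seq libraries, 1 from A549 cells whose genotype label is wild type and 1 from A549 cells whose genotype label is MYOCD Knockdown, with the title MYOCD-/-. Both libraries came from cells in DMEM with 10% FBS. The labels give Dox treatment of 72 h for both, while the series text has no treatment for the wild type. A difference between the libraries and an effect of doxycycline cannot be told apart. How the knockdown was made, and whether the cells are 1 clone, was not found in the labels. With 1 library per group there is no replicate error and no test, and every difference below is one between these libraries. MYOCD itself was listed at 0.881 RPKM in wild type and 0.400 RPKM in knockdown cells, both near the lower end of the table. These lie below the mean of 1 RPKM asked of the genes kept below. With 1 RPKM added to each value the log2 change of MYOCD was -0.43, short of 1.5-fold. At such levels the size of the knockdown cannot be read from these libraries. RPKM is the number of reads relative to the length of the transcript and to the total of mapped reads. In pairs of RPKM, wild type is first and knockdown second. Depth is unknown, because no counts were given.

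All 5 epithelial markers (KRT8, KRT18, KRT19, EPCAM and CDH1) were listed, with summed levels of 3354 RPKM in wild type and 3236 RPKM in knockdown cells. KRT8 (1545 and 1521 RPKM) and KRT18 (1776 and 1683 RPKM) made up nearly all of this sum. CDH1 had 23.8 and 22.5 RPKM, while KRT19 (7.70 and 7.69 RPKM) and EPCAM (2.24 and 2.15 RPKM) were low. Of 6 alveolar type II markers only NAPSA was found, at 1.27 and 0.771 RPKM, and SFTPA1, SFTPB, SFTPC, NKX2-1 and LAMP3 were not found among the names analysed here. Of the markers of other cell types, CD14 (3.13 and 3.30 RPKM) was found on its own line of 4 leukocyte genes, with CD68 in a locus shared with MPDU1 (53.0 and 63.3 RPKM), COL1A1 (2.76 and 2.41 RPKM) of 5 fibroblast genes, and 0 of 4 endothelial genes.

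S1P is formed when a sphingosine kinase phosphorylates sphingosine, and it is removed either by a phosphatase, which returns sphingosine, or by the S1P lyase, which cleaves it for good and is the exit from the pathway. Sphingosine comes from ceramide through ceramidases. Ceramide is made de novo from serine and palmitoyl-CoA, starting with serine palmitoyltransferase, or released from sphingomyelin by sphingomyelinases, and it can be turned into glucosylceramide. S1P is known for promoting survival and migration through its receptors, and ceramide for growth arrest and cell death, including in epithelial cells of the lung.

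Of the 9 enzymes, 2 had lower values in the knockdown library, SGPP1 and SPHK1, which act on opposite sides of the same phosphorylation step. The other 7 had slightly higher values as deposited, and 5 of them, all but SPHK2 and UGCG, also when the libraries were rescaled to equal summed RPKM. On the log2 scale with 1 RPKM added to each value, which is used for all log2 changes below and understates the change of low genes, the 7 ran from 0.09 to 0.32. The size rules were 2-fold and 1.5-fold on this scale. At 2-fold, 1 of the 9 (SGPP1) was lower and 0 were higher, where 0.724% of the 12158 named genes kept (mean RPKM of 1 or more) were lower and 0.65% were higher. At 1.5-fold, 2 of the 9 (SGPP1 and SPHK1) were lower and 0 were higher, where 3.2% of all genes were lower and 1.65% were higher. Among the 10167 single-gene protein-coding loci that enclose no microRNA, small nucleolar or small Cajal body RNA gene, 0.374% were at least 2-fold lower. Nothing is read from the members' counts against these shares, since the set was assembled with SGPP1 in view.

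**Figure D1:**
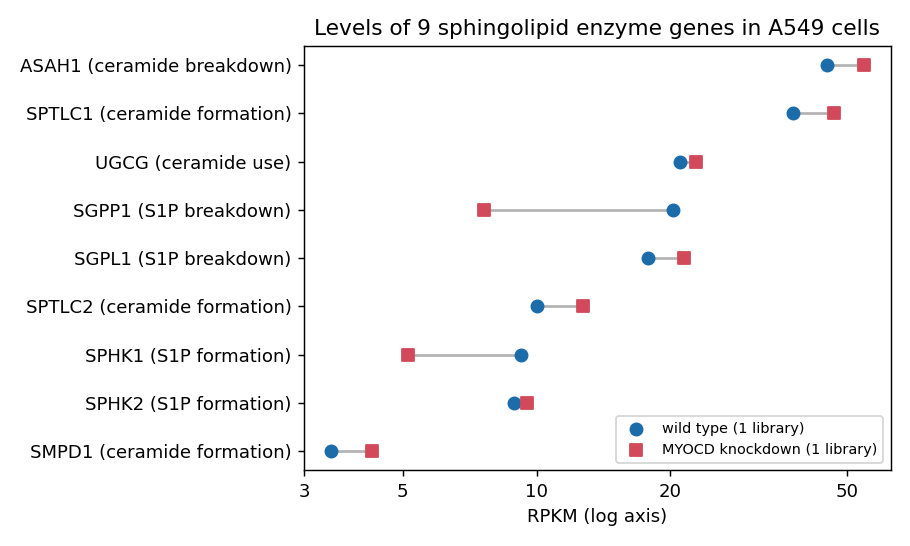
RPKM of the 9 enzymes (log axis) in the wild type library (circles) and the MYOCD knockdown library (squares), 1 library each, with the step each enzyme serves in brackets. SGPP1 goes from 20.3 to 7.61 RPKM and SPHK1 from 9.25 to 5.13 RPKM, while the squares of the other 7 lie a little to the right of their circles on the deposited scale, which for SPHK2 and UGCG turns with equal summed RPKM.

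SGPP1 is an S1P phosphatase of the endoplasmic reticulum that turns S1P back into sphingosine. Its level was 20.3 RPKM in wild type and 7.61 RPKM in knockdown cells, 37.6% of the wild type level, a log2 change of -1.30. In the wild type library SGPP1 lay above 65.6% of the named genes, and in the knockdown library above 34.9%. Of the 12158 genes, 51 (0.419%) had a log2 change as low or lower. In bulk RNA, fewer cells with a message and less of it per cell cannot be told apart. SGPP1 is annotated on the minus strand at chr14:63684214-63728039 (GENCODE release 29, GRCh38), with 3 exons and 3312 exonic bases, and no other annotated gene overlaps it. By this release no neighbour shares its bases, but the annotation behind the deposited value was not found.

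The last exon of SGPP1 holds a 3′ untranslated region of 1894 bases (chr14:63684214-63686107, counted from the stop codon), and the 7-base word AATATGC occurs in it 2 times. The word had been picked from these same values as frequent in genes that were lower in the knockdown library, SGPP1 among them, so its presence here is a description and supports nothing. The stretches of 30 bases around each copy are shown because SGPP1 is the one gene of the 9 with this word. They are in the direction of the message, from GENCODE transcripts on GRCh38, with the word in capitals; the first lies at chr14:63685791-63685820 (word at bases 299 to 305 of the region) and the second at chr14:63685698-63685727 (bases 392 to 398).
SGPP1 first copy: ataaggtacatAATATGCaattatatatct
SGPP1 second copy: aaatcaataatAATATGCaaacagttgtgc

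None of the other 8 enzymes carries the word in its longest annotated 3′ untranslated region. Over 11008 named genes with such a region, 12.4% carry it at least 1 time and 2.07% at least 2 times. Among 65 measured sphingolipid genes of a wider list described below, 9 carry it (13.8%). Besides SGPP1 these were CERT1 with 3 copies, CERK with 2, and PLPP1, ALDH3A2, HACD4, KDSR, ACER3 and ST3GAL5 with 1 each. The 8 other carriers had log2 changes from -0.43 (ALDH3A2) to 0.51 (HACD4) with a median of -0.04, and 6 of the 8 were below 0. The 56 genes without the word had a median of 0.11, with 21 (37.5%) below 0. CERT1, which carries ceramide from the endoplasmic reticulum to the Golgi, has the most copies and was higher, with a log2 change of 0.14. CERK, the ceramide kinase, has as many copies as SGPP1 and differed by -0.05. As the word was picked from these same values, the counts and medians of carriers and other genes are a description and support nothing. Whether the word bears on the level of any of these messages was not tested.

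**Figure D2:**
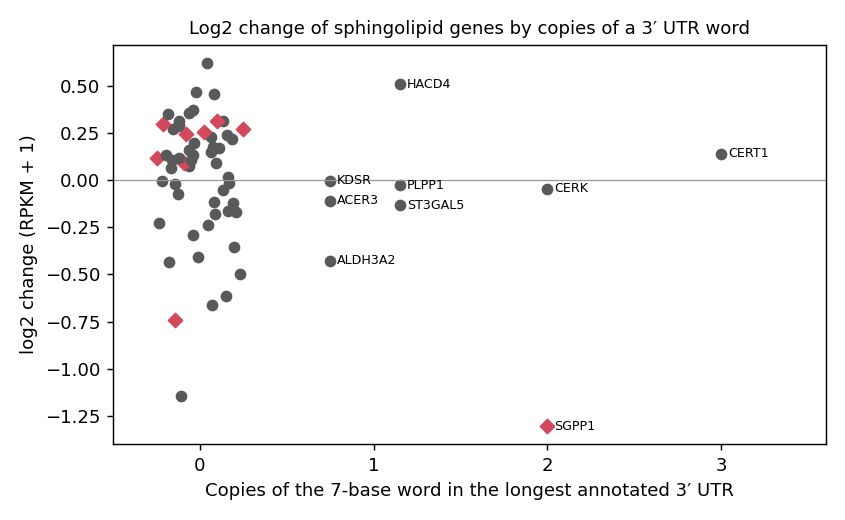
Log2 change between the libraries (vertical axis, RPKM + 1) of 65 sphingolipid genes by the number of copies of the word in the longest annotated 3′ untranslated region (horizontal axis, points spread sideways for legibility). Diamonds are the 9 enzymes and circles the other genes; SGPP1 at -1.30 lies far below CERK, the other gene with 2 copies, at -0.05.

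The kept phosphatases that can share the work of SGPP1 differed less between the libraries. SGPP2, its closest relative, was near the floor in both libraries, with 0.653 and 0.347 RPKM (53.1% of the wild type level). It was left out of counts for its low mean. The broad lipid phosphate phosphatases of the plasma membrane, which also remove phosphate from S1P, were listed under their older names. PLPP1 (PPAP2A) had 25.05 and 24.6 RPKM, PLPP2 (PPAP2C) had 60.1 and 60.0 RPKM, and PLPP3 (PPAP2B) had 7.29 and 8.63 RPKM. Their log2 changes were -0.03, -0.0039 and 0.22. Among the 4 phosphatases kept, only SGPP1 passed 1.5-fold, where 3.2% of all genes were lower and 1.65% were higher. As SGPP1 was chosen for its low value, this is a description and supports nothing.

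With 2 libraries, likeness between genes can only mean a similar log2 change. Among 7867 other loci of the same kind (single-gene, protein-coding, no short RNA gene enclosed) whose mean was 5 RPKM or more, the 5 nearest to SGPP1 were TMEM64 (-1.32), KCTD9 (-1.33), S100A9 (-1.35), ADSSL1 (-1.26) and SLC50A1 (-1.25). S100A9, at 20.6 and 7.48 RPKM, was the closest of the 5 to SGPP1 in level, and TMEM64 went from 14.8 to 5.32 RPKM.

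SPHK1 and SPHK2 encode the kinases that form S1P, the first mostly in the cytosol and at the plasma membrane, the second largely in the nucleus and mitochondria. SPHK1 was at 9.25 RPKM in wild type and 5.13 RPKM in knockdown cells, 55.5% of the wild type level, with a log2 change of -0.74. Of all named genes, 1.72% were as low or lower. SPHK2 had 8.90 and 9.54 RPKM, a log2 change of 0.09. The kinases thus stood at nearly the same level in the wild type library, with 1.04 times as much SPHK1 as SPHK2, and at 0.538 times in the knockdown library. A ratio of genes within a library does not depend on how the libraries are scaled.

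SPHK1 lies on the plus strand at chr17:76376584-76387860, and 59 of its 4416 exonic bases overlap exons of PRPSAP1 on the other strand. PRPSAP1 had 26.4 and 24.0 RPKM. SPHK2, on the plus strand at chr19:48619291-48630717, overlaps more, all on the other strand. It shares 678 exonic bases with the antisense gene AC022154.1, which was not found among the names analysed here, 661 with DBP, a clock output gene at 14.1 and 5.95 RPKM, and 246 with RPL18, a ribosomal protein gene at 1882 and 1716 RPKM. Whether reads were counted by strand was not found in the labels, so reads in these stretches cannot be told apart, and their part in the SPHK2 value was not tested.

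The RefSeq promoter table (GRCh38.p14) gave 10 start sites for 7 of the 9 genes, with SGPP1 and ASAH1 not matched. SPHK1 has 3 of these starts, and the deposited value covers the locus as a whole. The 250 bases before each start were searched on both strands for the GC box (letters GGGCGG), the CCAAT box (by these letters), the TATA box (letters TATAAA), the E box (letters CACGTG) and the CArG box, to which serum response factor is known to bind. GC boxes may overlap one another. A GC box was present before 8 of the 10 starts, against 64.7% of the 13047 starts of the genes kept and 42.6% of all 35116 starts. A CCAAT box was present before 1 start, that of SPTLC2 (32.7% of starts of the genes kept and 32.0% of all starts). The TATA, E and CArG boxes were present before 0 of 10, against 5.48%, 8.38% and 1.01% of starts of the genes kept and 10.7%, 6.34% and 1.16% of all starts. These are matches of letters in a short window only.

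The stretches before the middle start of SPHK1 (plus strand, chr17:76384359-76384608), which was lower, and before the start of SPTLC1 (minus strand, chr9:92115414-92115663), which was higher, are shown side by side, and overlap no annotated exon of their gene. The first start of SPHK1 has 1 GC box before it and the last has 0. PRPSAP1, on the other strand, reaches to chr17:76384521 and so into the SPHK1 stretch. Each stretch shown holds 2 GC boxes, in capitals, read 5′ to 3′ along the gene, so CCGCCC is a GC box on the other strand.
SPHK1: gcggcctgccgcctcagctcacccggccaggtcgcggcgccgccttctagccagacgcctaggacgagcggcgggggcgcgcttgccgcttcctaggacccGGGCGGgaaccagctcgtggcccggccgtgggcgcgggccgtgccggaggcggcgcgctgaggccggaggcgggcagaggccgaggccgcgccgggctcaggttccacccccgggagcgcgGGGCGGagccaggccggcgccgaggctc
SPTLC1: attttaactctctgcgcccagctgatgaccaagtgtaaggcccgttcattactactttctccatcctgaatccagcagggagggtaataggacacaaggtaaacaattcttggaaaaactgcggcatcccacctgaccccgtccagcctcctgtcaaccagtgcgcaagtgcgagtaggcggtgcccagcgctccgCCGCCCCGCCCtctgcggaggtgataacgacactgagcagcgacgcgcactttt

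SGPL1, the S1P lyase, was at 17.8 RPKM in wild type and 21.5 RPKM in knockdown cells, a log2 change of 0.26. As deposited, SGPP1 was lower and SGPL1 slightly higher, and 27.6% of named genes differed at least as much as SGPL1 either way. With equal summed RPKM the log2 change of SGPL1 was 0.067. The SGPP1 to SGPL1 ratio was 1.13 in wild type and 0.354 in knockdown cells, a 3.21-fold difference. The SPHK1 to SGPP1 ratio was 0.457 and 0.675, because SGPP1 was lower by more than SPHK1. Summed over both kinases the level was 18.1 RPKM in wild type and 14.7 RPKM in knockdown cells, and summed over SGPP1 and SGPL1 it was 38.1 and 29.1 RPKM. The ratio of these sums was 0.476 and 0.504. With PLPP1, PLPP2 and PLPP3 added to the genes for removal it was 0.139 and 0.120, so the direction of this ratio turns with the choice of genes. These are message levels, and the lipids were not measured here.

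**Figure D3:**
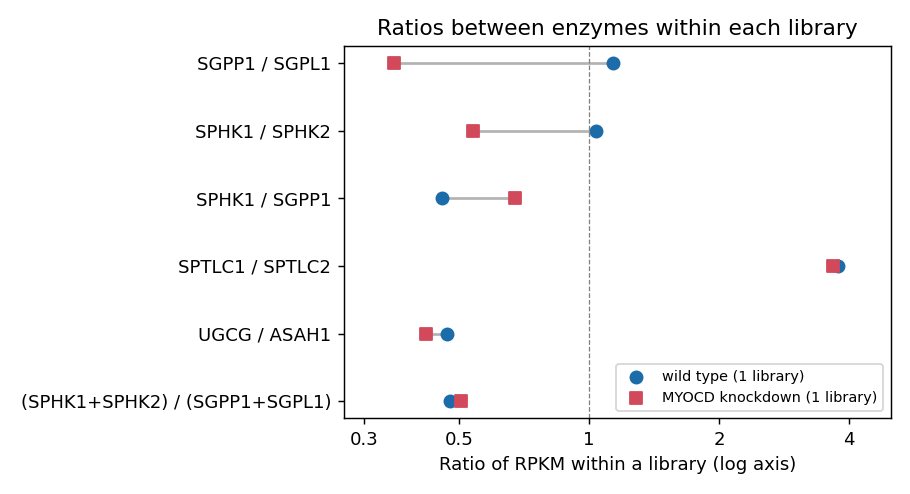
Ratios of RPKM between enzymes within a library (log axis) in the wild type (circles) and knockdown (squares) libraries, 1 each; the dashed line marks equal levels. The SGPP1 to SGPL1 ratio goes from 1.13 to 0.354 and the SPHK1 to SPHK2 ratio from 1.04 to 0.538, while the ratio of the serine palmitoyltransferase subunits and that of the summed kinases to SGPP1 plus SGPL1 differ little.

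The 5 ceramide enzymes of the set had slightly higher values in the knockdown library as deposited, and 4 of them, all but UGCG, also with equal summed RPKM. SPTLC1 and SPTLC2 encode the subunits that together form the core of serine palmitoyltransferase, which catalyses the first step of ceramide synthesis. SPTLC1 had 37.8 and 46.7 RPKM and SPTLC2 had 10.0 and 12.7 RPKM, with log2 changes of 0.30 and 0.32. The ratio of the subunits was 3.78 in wild type and 3.67 in knockdown cells. SMPD1, the acid sphingomyelinase of lysosomes, was the lowest of the 9 at 3.44 and 4.27 RPKM, with a log2 change of 0.25.

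ASAH1, the acid ceramidase of lysosomes that yields sphingosine, was the highest of the 9 in both libraries (44.9 and 54.5 RPKM), at a log2 change of 0.27. UGCG, which caps ceramide with glucose, had 21.0 and 22.8 RPKM, so its log2 change was 0.12. ASAH1 shares 251 exonic bases with the antisense gene AC124242.1, which was not found among the names analysed here. A microRNA gene, MIR4668, lies inside UGCG on its own strand, in a stretch that shares 0 bases with its exons.

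The 7 higher values were within the common range of these libraries. The central 95% of log2 changes of all named genes ran from -0.64 to 0.51, and 27.6% of genes lay between the lowest and highest of the 7. For SPTLC2, the highest, 8.35% of genes were as high or higher. With the libraries rescaled to equal summed RPKM, which moves the median of all genes from 0.01 to -0.17, SPHK2 and UGCG turned to -0.09 and -0.07, and 5 of the 7 were above 0. All 7 lay above the median of all genes under both scalings. A single factor moves all genes nearly alike, so this second result adds nothing to the first.

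**Figure D4:**
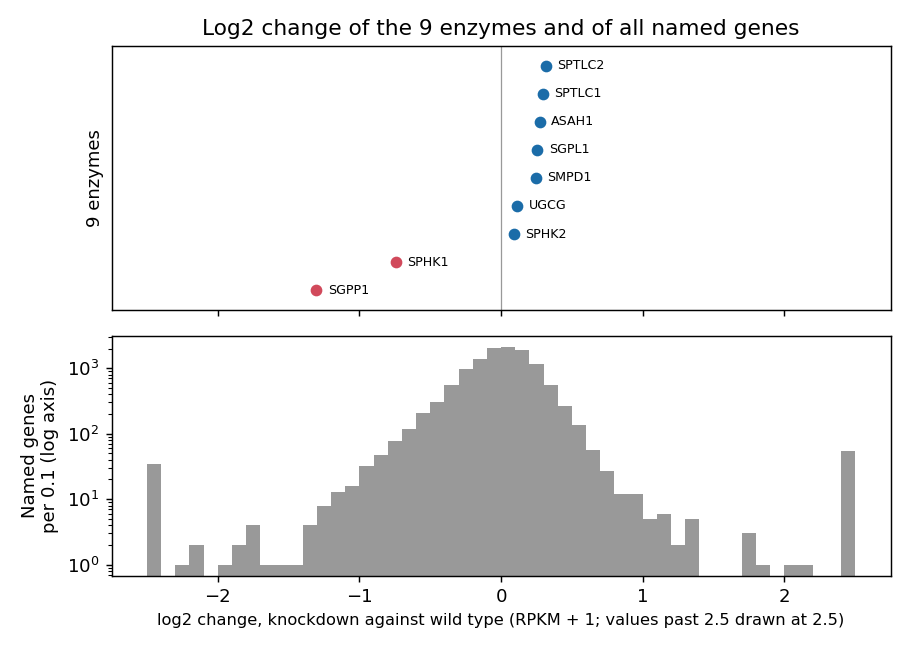
Upper panel: log2 change of the 9 enzymes between the knockdown and wild type libraries (RPKM + 1), in order. Lower panel: the same for 12158 named genes, as a histogram with a log count axis; SGPP1 at -1.30 and SPHK1 at -0.74 lie outside the central 95% of genes (-0.64 to 0.51) and the other 7 inside it.

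In order of level, the wild type library ran ASAH1, SPTLC1, UGCG, SGPP1, SGPL1, SPTLC2, SPHK1, SPHK2 and SMPD1. In the knockdown library SGPP1 moved from place 4 to place 7, behind SGPL1, SPTLC2 and SPHK2, and SPHK1 stood behind SPHK2. The first 3 places and the last were held by the same genes in both libraries. Neighbours in this order cannot be set against a spread, as there were no replicates.

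The rest of the pathway was described with a list of 81 genes of sphingolipid synthesis, breakdown, transport and signalling, the 9 enzymes included, drawn up with earlier results of these data known. Of these, 65 were measured on their own line at a mean of 1 RPKM or more. At 1.5-fold, 5 of the 65 were lower (SGPP1, CERS4, SPHK1, CERS1 and GAL3ST1) and 1 was higher (B3GNT5), which is 7.69% and 1.54% against 3.2% and 1.65% of all genes. Without the 9 enzymes 3 of 56 (5.36%) were lower and 1 was higher. The median of the 65 was 0.09, against 0.01 for all genes, and 37 (56.9%) were above 0, against 52.1% of all genes. The median thus lay near that of all genes, with single genes apart from it.

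**Figure D5:**
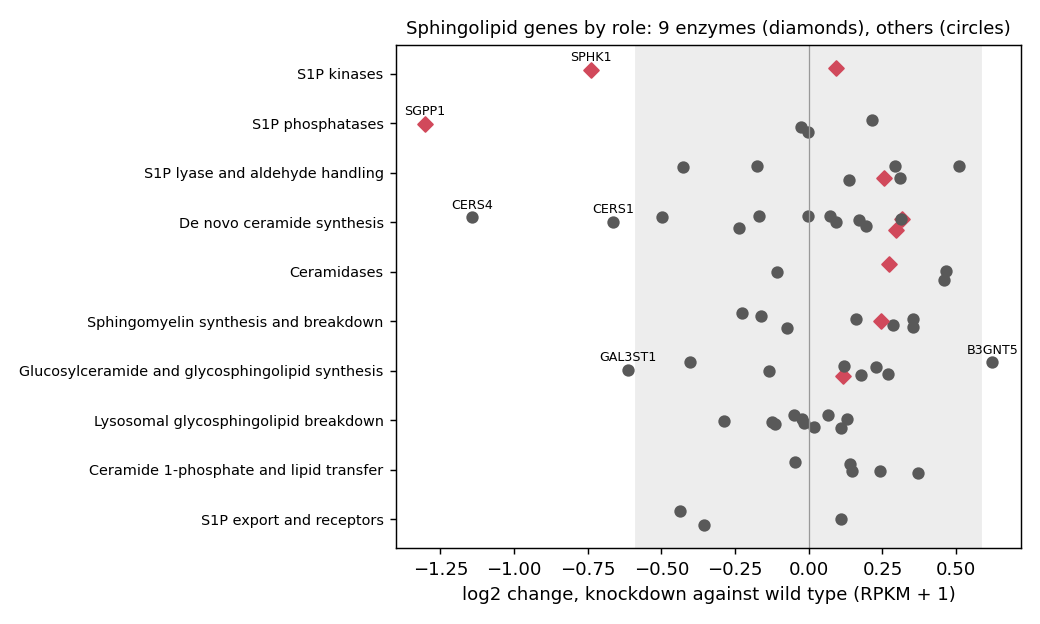
Log2 change between the libraries (horizontal axis, RPKM + 1) of 65 sphingolipid genes by role, with diamonds for the 9 enzymes and circles for the others, spread vertically for legibility. The grey band marks less than 1.5-fold; the genes outside it, named in the plot, are SGPP1, CERS4, SPHK1, CERS1 and GAL3ST1 on the low side and B3GNT5 on the high side.

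In de novo synthesis the genes lower at 1.5-fold were ceramide synthases. These join a fatty acyl chain to the sphingoid base and differ in the chain lengths they prefer. CERS4 was at 7.56 RPKM in wild type and 2.88 RPKM in knockdown cells, a log2 change of -1.14 that also passed 2-fold. CERS1 had 5.08 and 2.84 RPKM (-0.66). It shares a transcript with GDF1, so the value may not be of CERS1 alone. The more abundant synthases differed less: CERS2, which makes ceramides with very long chains, had 100.4 and 107 RPKM, CERS5 had 20.4 and 17.1 RPKM and CERS6 had 19.98 and 21.1 RPKM. Of the 13 genes kept in this group, 2 were lower at 1.5-fold (15.4%) and 0 higher, against 3.2% and 1.65% of all genes. With so few genes, nothing is read from this count. DEGS1, the desaturase that completes ceramide, had 48.6 and 60.6 RPKM. DEGS2, at low levels of 1.61 and 0.849 RPKM, was at 52.7% of the wild type level. Its log2 change of -0.50 did not pass 1.5-fold on this scale. DEGS2 shares 280 exonic bases with EVL on the other strand, at 15.1 and 12.8 RPKM. Reads in that stretch cannot be told apart, and their part in the DEGS2 value was not tested.

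Among 9 kept genes of glycosphingolipid synthesis, 1 was higher and 1 lower at 1.5-fold (11.1% each), against 1.65% and 3.2% of all genes. Nothing is read from counts this small. B3GNT5, which starts the lacto series of glycolipids, had 3.73 and 6.29 RPKM (0.62). GAL3ST1, which adds sulfate to galactosylceramide, had 9.20 and 5.67 RPKM (-0.61). UGCG, which supplies the glucosylceramide for this branch, stood between them at 0.12.

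No kept gene passed 1.5-fold in the other groups on the scale with 1 RPKM added. Without it, some genes at low levels did. HACD4 was at 163%, ACER2 at 156%, ASAH2B at 174% and SMPDL3B at 151% of the wild type level, and S1PR2 at 60.3%. By log2 change, the highest of 7 genes for the S1P lyase and the handling of its products was HACD4 (PTPLAD2), with 2.07 and 3.36 RPKM (0.51). The lowest by log2 change was ALDH3A2, the fatty aldehyde dehydrogenase next after SGPL1, with 155 and 115 RPKM (-0.43). Of the 4 kept ceramidases, ACER2 of the Golgi had 2.12 and 3.31 RPKM and ACER3 had 15.3 and 14.1 RPKM. Of 8 sphingomyelin genes, SGMS2, a sphingomyelin synthase, had 4.60 and 6.16 RPKM and SAMD8 had 12.04 and 10.2 RPKM. The 10 lysosomal genes ran from -0.29 for NEU1 (10.6 and 8.49 RPKM), a sialidase, to 0.13 for GLA (70.2 and 76.9 RPKM), the alpha-galactosidase. Of 5 ceramide phosphate and lipid transfer genes, CPTP (GLTPD1) had 8.14 and 10.8 RPKM and CERK had 7.78 and 7.51 RPKM.

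S1P signals through receptors at the cell surface after export. Of 8 genes for export and receptors, 3 were kept. S1PR2 had 1.91 and 1.15 RPKM (-0.44). It shares 83 exonic bases with DNMT1 on the same strand, at 29.9 and 28.3 RPKM, and reads there cannot be told apart. S1PR5 had 4.49 and 3.29 RPKM (-0.35). ABCC1, a transporter that can export S1P among many other substrates, had 68.9 and 74.3 RPKM (0.11). S1PR1, S1PR4 and the exporters SPNS2 and MFSD2B were not found among the names analysed here.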

How the data were processed

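RNA-seq values of 1 wild type and 1 MYOCD knockdown library of A549 cells were used, grouped by the genotype label. The deposited values are RPKM, computed by the authors, who name the builds BDGP5 and GRCh38.p12 and the tools Cufflinks 2.2.1 and TopHat2 2.0.10, with no roles, per the submitters' processing notes. The annotation, the filters on reads and the handling of strand were not found in the labels or the file. The higher library was at least 0.652 RPKM in every locus. Depth was sought in steps of the low values: among 2212 loci under 2 RPKM, at most 29 log2 ratios fell in any window of 0.01, so no relative depth could be read.

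Loci with no gene name (1909) were left out and lines of 1 name were summed (12936 names). Log2 changes used a pseudocount of 1, and the 12158 genes whose mean reached 1 RPKM were kept. Loci naming several genes stayed out of the lists. Genes named are the 9 members, list genes past 1.5-fold, the highest and lowest of each group, and the 5 genes nearest to SGPP1; others were named for their role, after their values were seen. The members and lists were chosen with earlier results of these data known. Positions and 3′ regions came from GENCODE release 29 (90.7% of kept names matched a protein-coding gene, older names through the RefSeq table) and promoters from RefSeq. Other pseudocounts, filters, scalings and a rule for repeated names were tried. Python 3.11.15, numpy 2.4.6 and pandas 2.3.3 were used, and the calculation was tested on simulated data.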

Additional observations from a re-analysis of the deposited data

How the results depend on the processing

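No paired analysis was possible because each group has 1 library, and for the same reason no library could be left out. A move of under 0.1 in a log2 value, or of up to 1.5 times in a count, is taken as none. With equal summed RPKM, a factor of 0.871 on the knockdown library, the log2 changes were -1.48 for SGPP1, -0.91 for SPHK1, -0.088 for SPHK2, 0.067 for SGPL1, 0.078 for ASAH1, -0.074 for UGCG, 0.10 for SPTLC1, 0.13 for SPTLC2 and 0.086 for SMPD1, the list median was -0.088 and 0 list genes were 1.5-fold higher. The shift comes from the factor itself; scaling on trimmed named genes gave a factor of 1.00. With a pseudocount of 5, SGPP1 was at -1.002, SPHK1 at -0.49 and SMPD1 at 0.13, so 1 member was 1.5-fold lower, and 2 list genes were lower and 0 higher. With a pseudocount of 0.1, 4 list genes were higher. Without the 9 enzymes, a setting chosen after seeing the data, 3 list genes were lower. In these settings the fewer calls at the larger pseudocount follow from its damping of low values. The other 96 of 115 values stayed within these limits; SMPD1 has none at a mean of at least 5 RPKM. Over all named genes, 389 were 1.5-fold lower and 201 higher (65.9% lower of those called), against 781 and 108 (87.9%) with equal sums, 615 and 345 at a pseudocount of 0.1, 125 and 97 at 5, and 211 and 138 at a mean of at least 5 RPKM. At 2-fold, 88 were lower and 79 higher, against 140 and 68 with equal sums, 189 and 111 at a pseudocount of 0.1 and 53 and 65 at 5. With no counts, depth sets an unknown limit on the low genes.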

Other observations

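Some sphingolipid genes stood in loci shared with a neighbour, and their values belong to the locus. The locus of GSDMB and ORMDL3, a brake on serine palmitoyltransferase, had 23.9 and 23.6 RPKM in the wild type and knockdown libraries. That of GLB1, the lysosomal beta-galactosidase, and TMPPE had 30.9 and 29.9 RPKM. The locus of C9orf47 and the S1P receptor gene S1PR3 had 9.55 and 10.7 RPKM, above both receptor genes with a line of their own, S1PR2 and S1PR5.

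Below the filter on low values, ASAH2, the neutral ceramidase, had 0.185 and 0.676 RPKM. Its partial copy ASAH2B had 1.02 and 1.78 RPKM, and reads cannot be told apart where they are alike. ORMDL1 had 32.6 and 36.8 RPKM and ORMDL2 had 28.0 and 32.2 RPKM, while SPTSSA, a small activating subunit of serine palmitoyltransferase, had 104 and 92.8 RPKM.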
